A study of Mus musculus with 24 samples.

Results

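The photoreceptor ribbon synapse was followed through 10 genes in individual mouse retinal organoids, chosen by name because their proteins build or operate the ribbon-type release site of photoreceptors. Each gene was taken as the Ensembl identifier that carries its symbol, which gave 10 of the 46603 Ensembl genes counted in every organoid. All 10 were counted often enough to be tested, among 46949 tested features of which 16253 were annotated genes and the rest loci assembled from these reads. The organoids were grown from wildtype mouse embryonic stem cells of the E14Tg2a line, and 6 whole organoids were lysed singly per timepoint, on D20 and D22 and then on D25 and D30, D being the day of differentiation. All 24 carry the genotype label Control, and their labels say that water as solvent was the sole addition, although the titles of the D20 organoids, unlike the later ones, do not name a control. They came from a single line and 1 independent experiment, so the spread between organoids measures differences within that experiment and not between differentiations. A whole organoid mixes photoreceptors with other cells. The question was when the genes of the photoreceptor output synapse came on between D20 and D30, and whether they did so together.

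A photoreceptor releases glutamate in the dark without pause and lowers that release in light. The electron-dense ribbon, built mainly of RIBEYE, tethers rows of synaptic vesicles beside L-type calcium channels, and bassoon anchors it to the membrane under which the channels cluster. Complexins particular to the retina, a Munc13 priming factor and RIM proteins set how vesicles become ready and fuse. Bipolar cells of the retina also use ribbons and share many of these proteins, so several of the genes are not particular to photoreceptors.

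Between 13634846 and 19477108 reads were counted per organoid, which makes 3 reads worth 0.154 to 0.22 CPM, the count scaled to a library of fixed depth. This is a conversion of units and no estimate of error, and the reads carry no molecular identifiers. The levels below are normalized CPM, that is CPM after the libraries were scaled to each other with TMM (trimmed mean of M-values). The labelled tissue was checked against markers of its cells. The summed level of 9 photoreceptor markers ran from 1289 to 1892 normalized CPM at D20 and from 3948 to 6992 at D30. Of the 9, 7 were called higher between these timepoints by the rule given below, and 1 lower. Of all tested features, 13.9% were called higher and 13% lower. Otx2, an early photoreceptor and bipolar factor, fell from 451 to 158 normalized CPM. Gnat1 (rod transducin) went from 0.247 to 269 normalized CPM and Rcvrn (recoverin) from 2.89 ± 1.498 to 484 ± 116 (SD, n = 6), while Crx, a transcription factor made by photoreceptors from early on, stood at 628 ± 30.4 at D20, 985 ± 97.7 at D25 and 755 ± 133 at D30. Bipolar markers moved in the same days, with a summed level over 8 genes of 117 to 146 at D20 and 238 to 380.0 at D30, where 6 rose and Pcp2 fell. The median sum of 4 Müller glia markers went from 306 to 1117 and that of 4 progenitor markers from 1289 to 286, with all 4 of the latter called lower. The part of any of these cell types in the changes below was not tested, and fewer cells of a type cannot be told apart from less RNA per cell in lysates of whole organoids.

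All 10 genes were higher at D30 than at D20, and none was called lower in any of the 6 comparisons between timepoints. A gene was called higher or lower where its adjusted p was below 0.01 in edgeR's quasi-likelihood test, the p-values being adjusted after Benjamini and Hochberg across every tested feature. From D20 to D30, 10 of 10 genes were called higher, beside 13.9% of all tested features and 25.1% of the annotated genes, and the organoids of the 2 timepoints did not overlap for 9 of them, beside 9.6% of all features. The median change of the 10 was 1.41 on the log2 scale and the range 0.44 to 6.32, whereas the median over all features was -0.04. Bsn was the exception in the overlap. In the joint test of the 4 timepoints 9 of 10 passed, all but Bsn, beside 27.2% of all features.

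**Figure D1:**
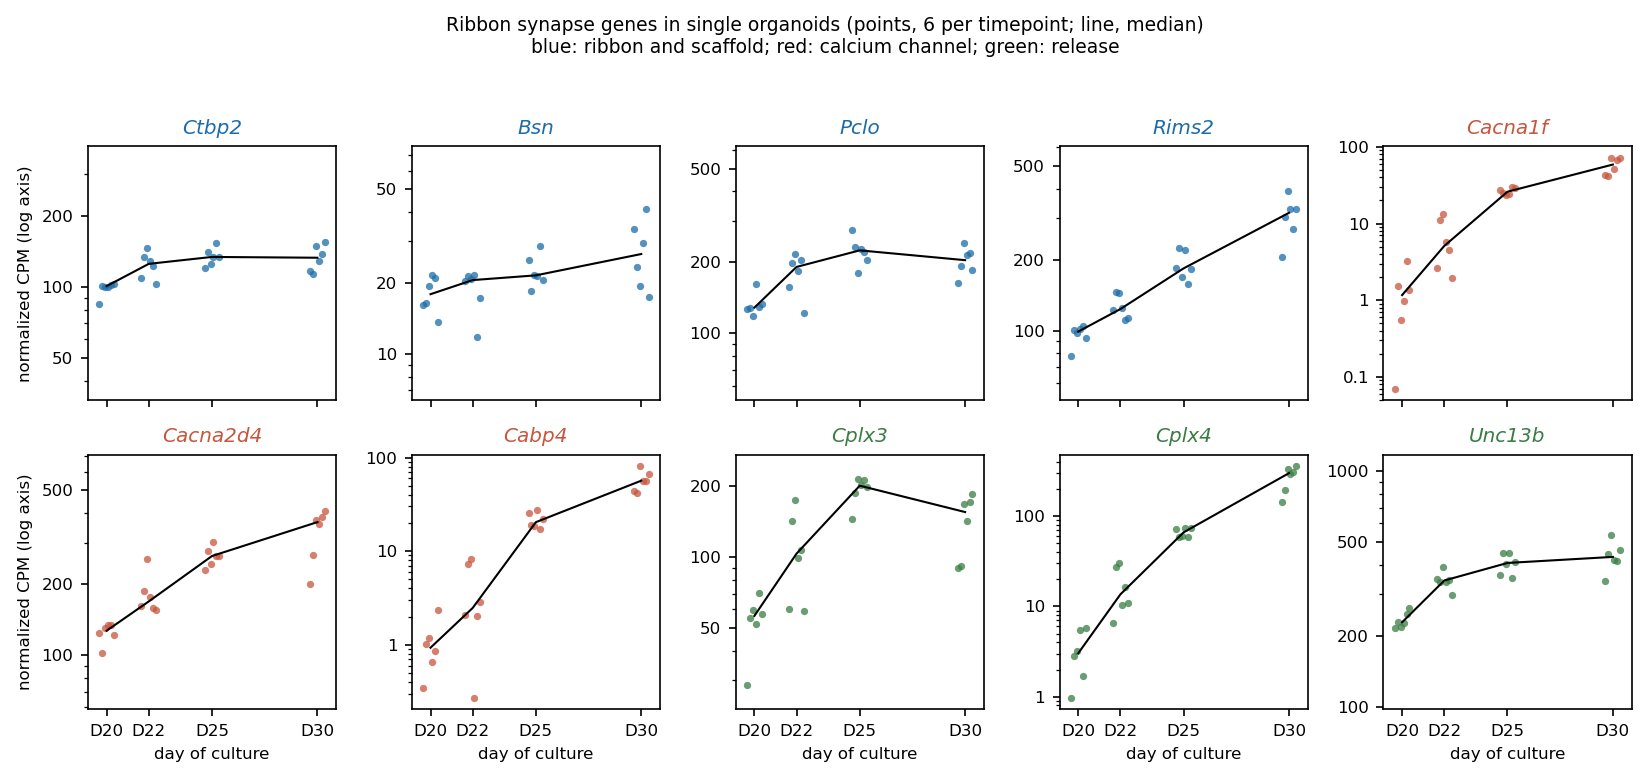
Normalized CPM of the 10 genes (vertical log axis, with its own range in each panel) against the day of culture; each point is 1 organoid, 6 per timepoint, and the line joins the medians. Cplx4, Cacna1f and Cabp4 climbed from medians of 3.03, 1.17 and 0.931 at D20 to 299, 58.8 and 56.6 at D30, while Ctbp2 moved from 101 to 133.

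Cacna1f, Cabp4 and Cplx4, each at no more than 5.83 normalized CPM in any D20 organoid, rose by more than 5 log2 units. The changes of the other 7 from D20 to D30 lay between 0.44 and 1.67. This division was drawn after the values were seen and was not tested.

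Of the ribbon and its scaffold, Ctbp2 changed least. The gene holds both RIBEYE, the main building block of the ribbon, and CtBP2, a nuclear corepressor found in many cells, which share all exons but their first. At D20 the organoids ran from 84.3 through a median of 101 to 102 normalized CPM, and at D30 from 114 through 133 to 155. Every D30 organoid lay above every D20 organoid. The fitted change from D20 to D30 was 0.44 ± 0.09 (log2, SE), an adjusted p of 0.000394. The first step measured 0.33 ± 0.09: D22 organoids of 103 to 146 lay above all of D20 but the adjusted p was 0.0337. From D25, with 120.1 to 154 normalized CPM, to D30 the change was -0.02 ± 0.09.

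The gene counts of Ctbp2 cannot separate RIBEYE from CtBP2. Of its 20 annotated transcripts, Ctbp2-214 starts within the gene at chr7:133015248 on the minus strand and encodes 988 residues, as a RIBEYE-type transcript with its long first exon does, and Ctbp2-201 starts far upstream and encodes 445. Both count toward the values above. Ctbp2 lies at chr7:132987563-133124354 (GRCm38), and 314 bp of its exons, 5.05% of them, are shared with Fgfr2 on the same strand, where htseq-count in its default mode assigns a read to neither gene. Fgfr2 itself took a median of 62.5 reads per organoid at D20 and 374 at D30, and its effect on the Ctbp2 counts was not tested.

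Bsn and Pclo encode bassoon and piccolo, giant relatives that hold the active zone together. Bsn had 13.6 to 21.7 normalized CPM at D20 with a median of 17.9, and 17.5 to 41.1 at D30 with a median of 26.5. The groups overlapped, and D30 had the widest spread of this gene, with a coefficient of variation of 32.9% against 17.5% at D20. Its change from D20 to D30 was 0.61 ± 0.18 (adjusted p = 0.00797), it passed in no other comparison, and in the joint test its adjusted p was 0.0223. The D30 call was lost when any of D20 replicates 1, 2, 3 and 6 or D30 replicates 1, 4 and 5 was left out, with adjusted p of 0.0115 to 0.0401. It was also lost with annotated genes only (adjusted p = 0.0142) and with D20 and D30 alone in the fit (adjusted p = 0.0205). From D22 to D30 its adjusted p was 0.0205 as well, and this comparison passed in DESeq2 (adjusted p = 0.00487) and without D30 replicate 3 or D30 replicate 6.

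Pclo ran from 118 to 162 normalized CPM at D20, 122 to 217 at D22, 179 to 274 at D25 and 163 to 241 at D30. D25 and D30 each lay wholly above D20, with changes of 0.75 ± 0.12 (adjusted p = 1.85e-05) and 0.61 ± 0.12 (adjusted p = 0.000126), and between D25 and D30 it moved by -0.14 ± 0.12 (adjusted p = 0.629). The first step, with an adjusted p of 0.0257, passed at 0.00237 without D22 replicate 6. An antisense gene, Gm26954, shares 496 bp with the exons of Pclo, 2.21% of them, and went from a median of 87.5 reads at D20 to 932 at D30. Whether the reads were counted by strand is not given in the sources used here, and the part of this overlap was not tested.

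Rims2, the main RIM of photoreceptors and a link between vesicles and calcium channels, was the only scaffold gene called in a consecutive step. The fitted steps of Bsn were also above 0 (0.07, 0.26 and 0.28) without being called, and the 2 courses were not tested against each other. Its organoids ran from 78.1 through a median of 99.0 to 105 normalized CPM at D20 and from 111 through 123 to 146 at D22. At D25 they ran from 157 through 184 to 224, and at D30 from 204 through 316 to 393. Each timepoint up to D25 lay wholly above the one before it, and D30 overlapped D25 through its lowest organoid alone. The 3 steps measured 0.40 ± 0.12 (adjusted p = 0.043), 0.58 ± 0.12 (adjusted p = 0.00149) and 0.68 ± 0.12 (adjusted p = 0.000256), and the whole change was 1.67 ± 0.12 or 3.17-fold (adjusted p = 2.84e-12). With annotated genes alone in the fit, the adjusted p of the middle step was 0.0101.

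Among the calcium channel genes, the pore was the gene that passed in the first step. Cacna1f, which encodes the pore-forming subunit Cav1.4, was counted 1 to 46 times per organoid at D20, or 0.0699 through a median of 1.17 to 3.27 normalized CPM. D22 organoids ran from 1.93 through 5.10 to 13.4, those of D25 from 23.7 through 26.0 to 30.0, and those of D30 from 41.2 through 58.8 to 72.5. The spread was wide while the gene came on, with a coefficient of variation of 71.1% at D22, and 10.03% at D25. D22 overlapped D20, and from then on each timepoint lay wholly above the one before. The change was 2.33 ± 0.42 from D20 to D22 (adjusted p = 0.00084), 2.03 ± 0.36 from D22 to D25 (adjusted p = 0.000354) and 1.11 ± 0.34 from D25 to D30 (adjusted p = 0.0415), a step that passed at 0.000142 with D25 and D30 alone in the fit. Over the whole interval it was 5.47 ± 0.43, or 44.4-fold (adjusted p = 1.95e-11).

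Cabp4, a calcium sensor that shifts the opening of Cav1.4 to lower voltages, rose over the same days, and its order against the pore was not tested. It was counted 5 to 37 times per organoid at D20 and had a median of 0.931 normalized CPM there, 2.47 at D22, 20.4 at D25 and 56.6 at D30. The lowest D22 organoid, with 0.274 normalized CPM, lay below all of D20, and those of D25 (17.4 to 27.2) and D30 (42.0 to 80.7) did not overlap any earlier timepoint. Its steps were 1.81 ± 0.44 (adjusted p = 0.0125), 2.51 ± 0.38 (adjusted p = 5.64e-05) and 1.42 ± 0.35 (adjusted p = 0.00856), and the whole change was 5.74 ± 0.45, or 53.3-fold (adjusted p = 1.24e-11). The last step was near the threshold: it was lost without any of 12 organoids (D20 replicates 2 and 3, all 6 of D25, and D30 replicates 3, 4, 5 and 6; adjusted p = 0.0104 to 0.0259), and in DESeq2 its adjusted p was 0.0213. The first step passed without D20 replicate 6 or without D22 replicate 4, and in DESeq2 (adjusted p = 0.00742). Gpr152, on the opposite strand, shares 131 bp with the exons of Cabp4 (3.72%) and went from a median of 12 reads at D20 to 375 at D30. Its counts were 10.8% to 340% of those of Cabp4 in the D20 organoids and 32.6% to 57.5% at D30. The effect of Gpr152 on the Cabp4 counts was not tested.

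Cacna2d4, the auxiliary subunit alpha2delta-4 that carries the channel to the terminal, was already counted 1519 to 2026 times per organoid at D20. It had 102 to 134 normalized CPM at D20, 156 to 257 at D22, 229 to 303 at D25 and 200.5 to 410.4 at D30, with medians of 127, 169, 263 and 367. Its first step was 0.56 ± 0.13 (adjusted p = 0.0121) with no overlap of the organoids. The second was 0.53 ± 0.13 (adjusted p = 0.00941) with overlap, and this call was lost without any of 17 of the 24 organoids (D20 replicates 1, 3, 4, 5 and 6, D22 replicates 1, 2, 4, 5 and 6, D25 replicates 2 to 6, and D30 replicates 3 and 4), with adjusted p up to 0.0287, and with annotated genes alone (adjusted p = 0.035). The first step in turn passed without D22 replicate 6, D30 replicate 1 or D30 replicate 6, and in DESeq2 (adjusted p = 0.0053). From D20 to D30 the gene rose by 1.42 ± 0.14, or 2.68-fold (adjusted p = 1.01e-09).

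The release genes held the largest change of the 10, that of Cplx4. Cplx4, a complexin that clamps and primes vesicles at retinal ribbons and is used by rods, ran from 0.979 through a median of 3.03 to 5.83 normalized CPM at D20 and from 6.50 through 13.6 to 30.3 at D22. It reached 59.2 to 74.4 with a median of 66.0 at D25, and 145 to 356 with a median of 299 at D30. No organoid of any timepoint overlapped an earlier one. The steps were 2.33 ± 0.34 (adjusted p = 7.62e-05), 1.97 ± 0.30 (adjusted p = 7.67e-05) and 2.02 ± 0.30 (adjusted p = 3.01e-05), so Cplx4 was the only member called in all 3, and over the whole interval it rose by 6.32 ± 0.37, or 80.1-fold (adjusted p = 3.37e-14).

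Cplx3, its close relative in cones, bipolar and amacrine cells, took another course. Its organoids ran from 28.7 through a median of 56.3 to 70.1 normalized CPM at D20, from 58.9 through 103 to 175 at D22, and from 145 through 201 to 215 at D25. At D30 they ran from 90.0 through 155 to 185. The D22 organoids spread widely and overlapped both neighbours. From D20 to D22 the change was 0.99 ± 0.22 (adjusted p = 0.00698), from D22 to D25 it was 0.85 ± 0.22 (adjusted p = 0.0104), and from D25 to D30 it was -0.45 ± 0.22 (adjusted p = 0.274). The first call was lost without any of 10 organoids (D20 replicates 1, 2, 3, 4 and 6, D22 replicates 2 to 5, and D25 replicate 3; adjusted p = 0.0105 to 0.0376). The second passed without any of 7 (D20 replicate 1, D22 replicates 2 and 3, D25 replicate 1, and D30 replicates 1, 2 and 6), in DESeq2 (adjusted p = 0.00156) and with no filter on low counts (adjusted p = 0.00103). From D20 to D30 Cplx3 rose by 1.39 ± 0.22, or 2.63-fold (adjusted p = 9.16e-06). The summed level of 6 amacrine markers had medians of 137 normalized CPM at D20, 287 at D25 and 229 at D30. From D25 to D30, 2 of the 6 were called lower and 0 higher, beside 1.75% and 1.76% of all features. From D20 to D30, 2 were called higher and 0 lower, beside 13.9% and 13%. Of 8 bipolar markers 5 were called higher and 0 lower from D25 to D30, and of 9 photoreceptor markers 3 higher and 1 lower. The part of these cell types was not tested.

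Unc13b encodes Munc13-2, a vesicle priming factor. It ran from 215 through a median of 228 to 263 normalized CPM at D20 and from 299 through 343 to 392 at D22, with no overlap. The step was 0.56 ± 0.09 (adjusted p = 0.000272) and the later ones were 0.23 ± 0.09 (adjusted p = 0.0987) and 0.11 ± 0.09 (adjusted p = 0.616), up to 340.3 to 534 at D30. The whole rise was 0.90 ± 0.09, or 1.87-fold (adjusted p = 2.94e-09). The comparison of D30 with D22 (0.34 ± 0.09, adjusted p = 0.00431) was lost without D22 replicate 6 or D30 replicate 3 and with annotated genes alone (adjusted p = 0.101).

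Step by step, 4 of the 10 genes were called higher from D20 to D22 (Cacna1f, Cplx3, Cplx4 and Unc13b), beside 1.62% of all tested features, and none of the 4 scaffold genes was among them. The median change of the 10 was 0.56 (log2) and that of all features 0.02. In the second step 5 were called (Rims2, Cacna1f, Cacna2d4, Cabp4 and Cplx4), beside 3.08%, with a median of 0.55 against -0.05 over all features, and all 3 calcium channel genes were among them. In the third step 3 were called (Rims2, Cabp4 and Cplx4), beside 1.76%, with a median of 0.31 against -0.02. Over the longer spans, 9 of 10 were called from D20 to D25, all but Bsn, beside 8.5%, and 6 of 10 from D22 to D30 (Rims2, Unc13b, Cplx4 and the 3 calcium channel genes), beside 11%. Of the annotated genes, 2.56%, 7.33% and 4.55% were called higher in the 3 steps. Their share was 14.8% from D20 to D25 and 24% from D22 to D30. The organoids of the earlier and later timepoint did not overlap for 5 members in the first step, beside 1.48% of all features, for 4 in the second, beside 3.17%, and for 3 in the third, beside 2.14%. Consecutive steps share the organoids of the timepoint between them, so their values are not independent of each other.

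**Figure D2:**
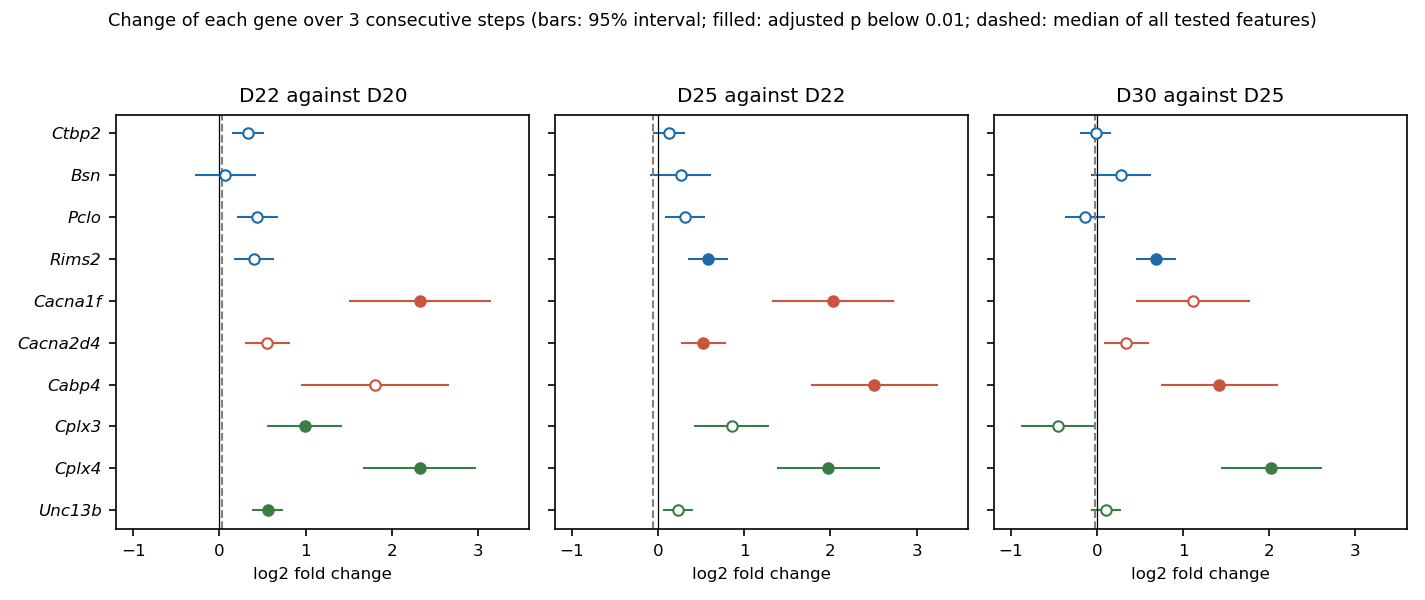
Log2 fold change (horizontal axis) of each gene in the 3 consecutive steps; bars are 95% intervals, filled points have an adjusted p below 0.01 and the dashed line is the median of all tested features. The intervals of Cplx4 stay above 1 in every step, those of Bsn include 0 in every step.

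A step that passed beside one that did not does not show that the steps differ, so the differences were tested directly. No member passed for the step from D22 to D25 minus that from D20 to D22, where 0.0277% of all features did in either direction, nor for the step from D25 to D30 minus that from D22 to D25, where 0.0447% did. In edgeR's test 1 member had an unadjusted p under 0.05 in the first contrast, Unc13b (-0.33 ± 0.16, adjusted p = 0.367), and 2 in the second, Cplx3 (-1.30 ± 0.37, adjusted p = 0.249) and Pclo (-0.44 ± 0.20, adjusted p = 0.655). DESeq2 called 0 members in either contrast as well. The steps last 2, 3 and 5 days, and no rate per day was compared.

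Per length, Cplx4 made the largest move in the order of the genes, from rank 7 at D20 to rank 1 at D30. Levels were divided by the length of all annotated exons in kilobases, the scale on which levels of different genes are compared here. At D20 Cplx3 stood highest with 18.2 ± 4.68 normalized CPM per kilobase (SD, n = 6), followed by Ctbp2 with 15.8 ± 1.104, Cacna2d4 with 13.1 ± 1.26 and Unc13b with 10.3 ± 0.81, and each of these overlapped the next. Pclo, with 5.92 ± 0.68, lay apart from its neighbours on both sides, and Cplx4 (1.73 ± 1.02), Bsn (1.13 ± 0.20), Cabp4 (0.304 ± 0.198) and Cacna1f (0.142 ± 0.122) made up the bottom. At D30 Cplx4 led with 139 ± 42.6, above every organoid's value for the next gene, Cplx3, at 47.9 ± 14.1. Cacna2d4, Rims2, Ctbp2, Unc13b and Cabp4 came next, from 35.1 ± 8.61 down to 16.4 ± 4.14, and neighbours among them overlapped. Pclo (9.04 ± 1.23) and Cacna1f (6.34 ± 1.60) overlapped each other, and Bsn came last with 1.73 ± 0.57.

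**Figure D3:**
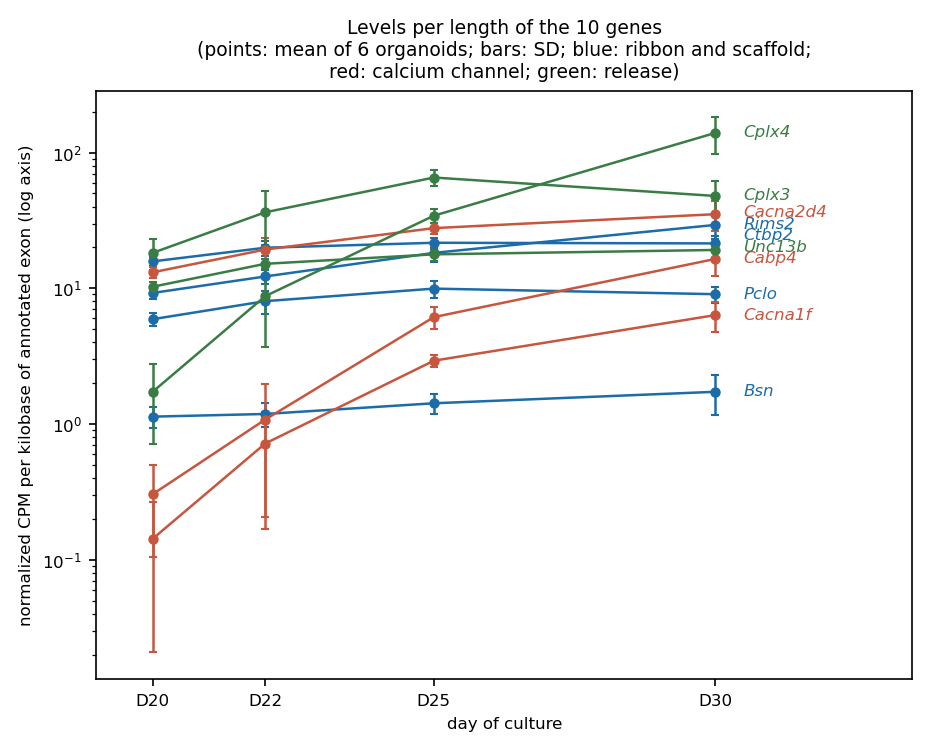
Mean normalized CPM per kilobase of annotated exon (vertical log axis; bars are the SD of 6 organoids) against the day of culture. Cplx4 crossed from rank 7 at D20, with 1.73, to the top at D30, with 139, while Bsn went from 1.13 to 1.73.

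The choice of length moved some of these places. With the longest annotated transcript in place of all exons, Ctbp2 led at D20 with 27.2 normalized CPM per kilobase and Cplx3 took rank 4 with 18.8. The D30 level was 63.4 for Rims2, 57.4 for Cacna2d4, 49.5 for Cplx3, 36.9 for Ctbp2 and 29.5 for Unc13b, on that scale, so that Rims2 took rank 2 and Cplx3 rank 4. Cplx4 stayed first with 149 and Bsn last with 1.73. Both lengths are annotation and not the transcripts in use, which gene counts do not show.

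Related genes shifted against each other inside the same organoid. The log2 ratio of counts, with 0.5 added to each, is free of the scaling between libraries, and 7 pairs of relatives or partners were taken after their levels had been seen, so the ratios are a description without a test. Cplx4 had on average -4.19 ± 0.83 against Cplx3 at D20 (SD, n = 6) and 0.93 ± 0.15 at D30, and Cacna1f had -5.28 ± 1.69 against Cacna1d, the Cav1.3 pore of other cells, and then 0.96 ± 0.50. Both ratios were below 0 in every D20 organoid and above 0 in every D30 organoid. A ratio of counts is not divided by length, so its change between timepoints can be read and its height cannot be taken as an order of levels. Cplx3 against Cplx2, a complexin of conventional synapses, moved from -1.85 ± 0.35 to 0.33 ± 0.55, Unc13b against Unc13a from 0.74 ± 0.21 to 2.04 ± 0.63, and Ctbp2 against Ctbp1 from -0.73 ± 0.18 to 0.06 ± 0.32. These 5 ratios did not overlap between D20 and D30. Rims2 against Rims1 (3.38 ± 0.55 and 2.97 ± 0.70) and Pclo against Bsn (2.89 ± 0.25 and 2.94 ± 0.54) did. A ratio also rises where the other gene falls. From D20 to D30 the fitted change was -0.75 for Cplx2, which was called lower. It was -0.35 for Unc13a, -0.33 for Ctbp1 and -0.23 for Cacna1d, none of them called, whereas Cplx3 rose by 1.39.

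**Figure D4:**
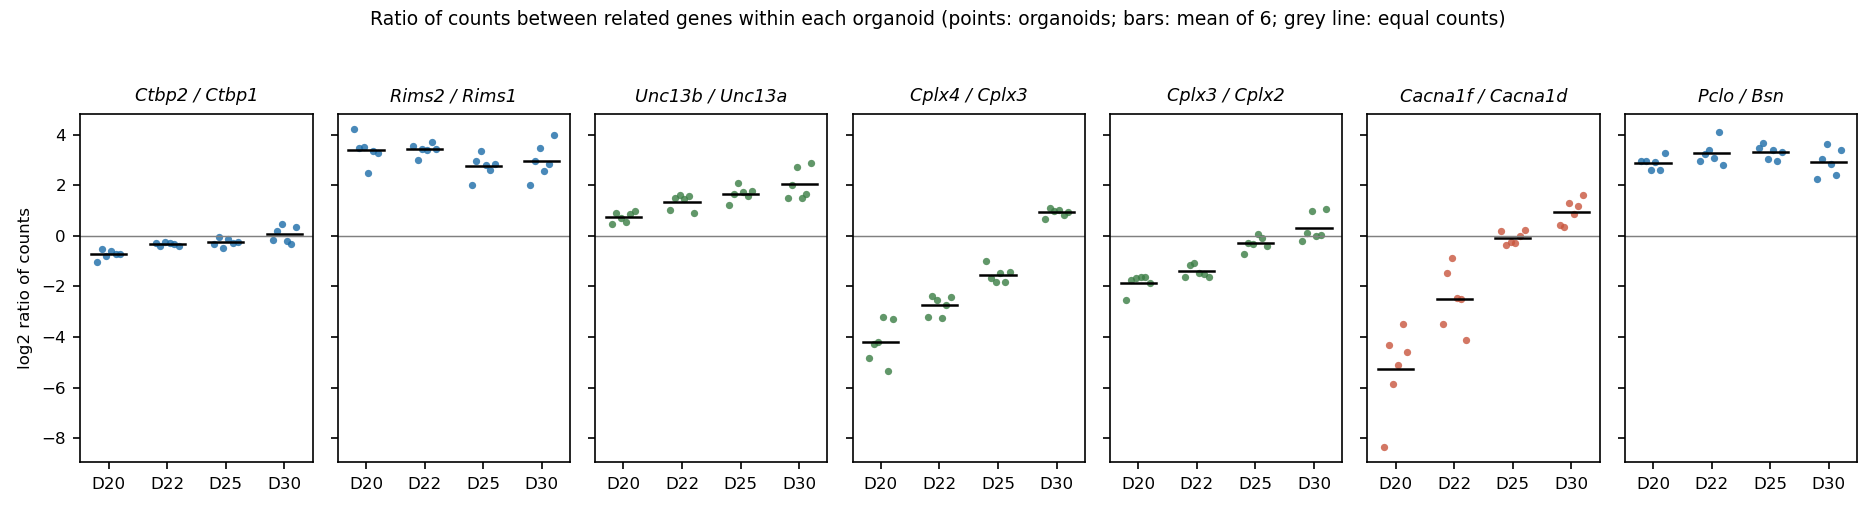
Log2 ratio of counts between 7 pairs of related genes (vertical axis) by timepoint; points are organoids, bars the mean of 6, and the grey line marks equal counts. Cplx4 over Cplx3 rose from a mean of -4.19 at D20 to 0.93 at D30, whereas Pclo over Bsn stood at 2.89 and 2.94.

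The upstream sequences of the genes were set beside these courses. The RefSeq table of promoters (GRCm38.p6) held windows for 6 of the 10 genes, and the 250 bases before the start were searched on both strands for TAATC, the core of the sites that the photoreceptor factors CRX and OTX2 bind, for its longer form TAATCC, which holds TAATC, and for TGCTGA, the core of the site of the rod factor NRL. TAATC occurs in 19.8% of all 32851 windows of this length, TAATCC in 6.25% and TGCTGA in 16.1%. The 3 genes that hold TAATC, and Bsn as a gene without it, are printed 5′ to 3′ on the gene's strand. Annotated exon bases were left out for Cplx3, Cacna1f and Bsn. Both shorter motifs are in capitals in either orientation. GATTA is the first of them read backwards on the other strand, and TCAGCA the second. For Ctbp2 a short stretch around the motif is given with no exon bases left out, since its window overlaps first exons of other annotated Ctbp2 transcripts.
Cplx3, chr9:57606282-57606531, minus strand: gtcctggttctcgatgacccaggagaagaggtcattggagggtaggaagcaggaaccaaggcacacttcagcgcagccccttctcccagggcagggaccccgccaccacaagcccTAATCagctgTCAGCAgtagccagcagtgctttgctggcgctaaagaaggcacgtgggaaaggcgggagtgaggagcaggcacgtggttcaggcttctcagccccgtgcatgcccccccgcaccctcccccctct
Cacna1f, chrX:7606853-7607082, plus strand: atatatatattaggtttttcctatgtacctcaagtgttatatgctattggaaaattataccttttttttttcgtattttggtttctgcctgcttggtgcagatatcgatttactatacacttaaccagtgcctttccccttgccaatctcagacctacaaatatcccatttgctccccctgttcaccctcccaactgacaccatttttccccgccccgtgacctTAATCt
Ctbp2 inner start, chr7:133015350-133015379, minus strand: aaggtttcagagGATTAataatttaggtcg
Bsn, chr9:108190385-108190530, minus strand: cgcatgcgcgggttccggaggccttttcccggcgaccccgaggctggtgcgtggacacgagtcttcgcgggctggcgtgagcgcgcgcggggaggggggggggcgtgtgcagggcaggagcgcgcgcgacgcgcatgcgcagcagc

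Cplx3 held TAATC at 135 bases before its start and the reverse complement of TGCTGA close by, and Cacna1f held TAATC at 26 bases before its RefSeq start. That RefSeq start lies downstream of the annotated gene start of Cacna1f, chrX:7607083, before which the printed stretch ends. The inner start of Ctbp2, that of Ctbp2-214, had GATTA at 120 bases before it, as part of GGATTA, the reverse complement of TAATCC. The other Ctbp2 window, Pclo, Unc13b and Bsn held none of the 3 motifs. The Bsn window had 71.6% G and C and 32 CpG, more CpG than 95.4% of all windows, and that of Cacna1f had 41.6% and 4. These matches are letters in a window and show no binding.

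The genes whose course over the 24 organoids was most like each member were found by the mean absolute difference of log2 normalized CPM, centred on each gene, among 10164 annotated protein-coding genes whose mean normalized count reached 100. Pde6g was among them for Cplx4, beside Impg1 for Cacna1f and beside Slc24a1 for Cabp4. Pde6g is a subunit of the rod phosphodiesterase, Slc24a1 the rod sodium-calcium exchanger and Impg1 a proteoglycan of the matrix around photoreceptors. Pde6g stood at 3.65 ± 1.95 normalized CPM at D20 and 134 ± 29.3 at D30, and its mean difference from the courses of the 3 members was 0.41, 0.39 and 0.54 log2 units. Cplx3 lay nearest to Samd7 and Nrl, at 0.19 each, and Nrl, the rod-determining factor, had its highest mean at D25 too, with 84.2 ± 19.1 normalized CPM at D20, 350.4 ± 43.3 at D25 and 294 ± 50.04 at D30. The neighbours of the other 6 were Retreg3 and Dnmt3a for Ctbp2, Mgat4b and Nacad for Bsn, Ncoa2 and Efr3a for Pclo, Uhmk1 and Bbs9 for Rims2, Dgke and Rrp1b for Cacna2d4, and Cul3 and Rnf145 for Unc13b. Among the members themselves, Ctbp2 and Pclo were the closest pair (0.16) and Ctbp2 and Cabp4 the farthest (2.05).

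The wider terminal was read from a list of 26 other genes of synaptic terminals, all of which were tested. It holds genes of the photoreceptor synapse and relatives used at conventional synapses, such as Cplx2 and Cacna1d. From D20 to D30, 19 were called higher, beside 13.9% of all features and 25.1% of the annotated genes, 1 was called lower, beside 13% of all features, and 6 did not pass. The median change was 1.15 on the log2 scale. All 5 genes of the contact with the bipolar dendrite were called higher, as were 8 of 11 vesicle and fusion genes, 4 of 7 active zone and priming genes and 2 of 3 genes of calcium entry and removal. The largest rises were those of Cacnb2 (3.44 ± 0.18, adjusted p = 3.94e-15), the beta subunit that partners Cav1.4, Lrit1 (3.03 ± 0.19, adjusted p = 1.71e-13), an adhesion protein of the photoreceptor synapse, and Slc17a7 (2.55 ± 0.15, adjusted p = 3.28e-14), the vesicular glutamate transporter VGLUT1. Stx3, the syntaxin of ribbon synapses, followed (2.28 ± 0.14, adjusted p = 1.34e-13), and then Rims1 (2.00 ± 0.26, adjusted p = 3.03e-07). Cacnb2 had 10.8 to 22.1 normalized CPM at D20 and 128 to 212 at D30, with no overlap.

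The one gene of that list called lower was Cplx2, the complexin of conventional synapses. It had 162 to 217 normalized CPM at D20, 182 to 371 at D22, 195 to 268 at D25 and 85.7 to 169 at D30. The change from D20 to D30 was -0.75 ± 0.16 (adjusted p = 0.000446) with overlap, and from D25 to D30 it was -1.06 ± 0.16 (adjusted p = 5.44e-05) with none. Of the 26, 11 were called higher in the first step, beside 1.62% of all features, 11 in the second, beside 3.08%, and 2 in the third, beside 1.76%, where 1 was called lower. Of the annotated genes, 2.56%, 7.33% and 4.55% were called higher in these steps.

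**Figure D5:**
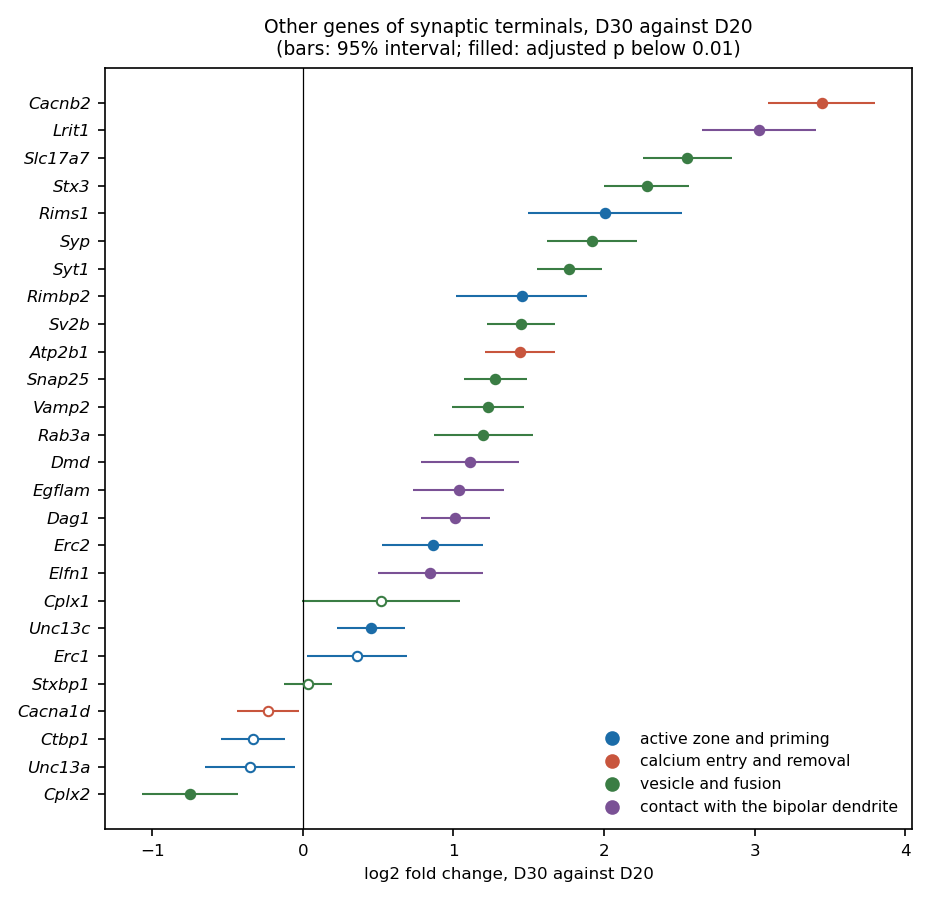
Log2 fold change from D20 to D30 (horizontal axis) of 26 other genes of synaptic terminals, ordered by size and coloured by role; bars are 95% intervals and filled points have an adjusted p below 0.01. Cacnb2 leads with 3.44 and Cplx2 is the lowest with -0.75.

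At some timepoints the same organoid was highest or lowest for many members. At D22, replicate 3 had the highest level of 8 of the 10 genes and replicate 6 the lowest of 6. Replicate 3 also had the most Crx (1044 normalized CPM) and Rcvrn (51.2) of that timepoint, and replicate 6 the least Crx (724) but not the least Rcvrn (19.8, where replicate 5 had 13.9). At D20, replicate 1 was lowest for 7 genes and had the least Crx (577) but not the least Rcvrn (2.73, where replicate 3 had 1.44), and at D30 replicate 1 was lowest for 6 and had the least Crx (537) and Rcvrn (309.7). At D25 no organoid was highest for more than 3 or lowest for more than 4 of the members, and replicate 5 was both. The part of photoreceptor content in these differences was not tested. Without D22 replicate 6, 6 members were called from D20 to D22, without D22 replicate 3 it was 3, and without D20 replicate 1 also 3. From D20 to D30, 10 were called without D22 replicate 3 or 6, and 9 without D30 replicate 1 or D20 replicate 1, Bsn being lost. The share of all features called without these organoids is not given.

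Set against Crx instead of all genes, fewer members were called early. With the Crx counts of each organoid as its library size, the median of all features moved by -0.44 (log2) from D20 to D22 and by 0.39 from D25 to D30, since Crx itself changed. On that scale Ctbp2, Bsn, Pclo and Rims2 had values of -0.14, -0.42, -0.042 and -0.072 from D20 to D22, none of them called, and 2 members were called higher, Cacna1f and Cplx4, where 6.46% of all features were called in either direction. From D20 to D30, 7 of 10 were called higher relative to Crx, where 25.2% of all features were called in either direction, with Cplx4 at 6.04, Cabp4 at 5.48, Cacna1f at 5.21 and Rims2 at 1.41, while Ctbp2 (0.20, adjusted p = 0.161), Bsn (0.41, adjusted p = 0.132) and Pclo (0.37, adjusted p = 0.0346) did not pass.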

How the data were processed

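RNA of 24 individual organoids, 6 per timepoint, was depleted of ribosomal RNA and sequenced from strand-specific libraries. The authors aligned the reads with hisat2 to GRCm38/mm10, assembled transcripts with stringtie 1.3.3 and counted reads per annotated gene or assembled locus with htseq-count 0.6.1, whose strand setting is not given in the sources used here. The deposited values are raw counts per feature, without normalization. Samples were grouped by their labels, and replicate numbers name separate organoids of 1 experiment.

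From these counts, features whose mean normalized count reached 10 were tested in one edgeR 4.0.16 quasi-likelihood fit of all 24 organoids (TMM, R 4.3.3) with a threshold of 0.01 on the Benjamini-Hochberg adjusted p. Standard errors were derived from the test statistic. The alternatives were DESeq2 1.42.0, other scalings and filters, a replicate block and leaving out each organoid. The scripts were tested on simulated data. Symbols and positions came from GENCODE vM21, upstream sequences from RefSeq. The members and the lists of terminal and marker genes were chosen with earlier results of these data known. All members were named, and of the 26 terminal genes every gene called lower and the 5 largest rises from D20 to D30; the 2 genes most like each member followed a fixed distance, and 1 of them is not reported here. Other genes were named beside a result after their values were seen.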

Additional observations from a re-analysis of the deposited data

Results flagged for a closer look

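Among the 40 groups of 6 organoids formed by 10 genes and 4 timepoints, 4 held an organoid that stood farther from the others than Dixon's 95% limit, which chance reaches in about 1 of 20 groups. Ctbp2 was lowest in D20 replicate 1, with 84.3 normalized CPM where the next organoid had 99.3. Pclo was highest in D20 replicate 4, with 162 against 133. Cacna2d4 was lowest in D20 replicate 2, with 102 against 122, and highest in D22 replicate 3, with 257 against 187. D22 replicate 3 is the organoid with the highest level of 8 of the 10 genes at that timepoint.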

How the results depend on the processing

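Without replicate block, as reported, 4, 5 and 3 members were called in the consecutive steps, and with the replicate number as a block 5, 6 and 2. The share of all features called with the block is not given. These counts therefore cannot tell a change in the members from a change in all features. The block gained Cacna2d4 in the first step (adjusted p = 0.00998) and Cplx3 in the second (adjusted p = 0.001), and lost Cabp4 in the third (adjusted p = 0.0142). Same-numbered organoids correlated by -0.08 to 0.21, over 0.1 in 1 of 36 pairs. No correlation was computed for differently numbered organoids, so a shared effect of the number was not tested. Crx counts as library size gave 2, 3 and 6 in these steps. The share of all features called in either direction was then 6.46%, 3.75% and 6.98%, against 1.90%, 5.28% and 3.51% as reported. From D20 to D25 the Crx scale gave 5 in place of 9, where 29.5% of all features were called in place of 15.1%. Annotated genes alone gave 3 in the second step, where 12.3% of the annotated genes were called in either direction. Leaving out single organoids gave 3 to 6, 4 to 6 and 2 to 3 in the steps and 9 to 10 from D20 to D30. For these fits the share of all features called is not given either.

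Directions turned for these changes, of which only that of Ctbp2 from D20 to D25 had been called. Relative to Crx, from D20 to D22 Ctbp2 was at -0.14, Bsn at -0.42, Pclo at -0.042 and Rims2 at -0.072; Ctbp2 was at -0.048 from D22 to D25, 0.38 from D25 to D30 and -0.19 from D20 to D25, Bsn at -0.31 from D20 to D25, and Pclo at 0.25 from D25 to D30. From D25 to D30 Ctbp2 was at 0.031 in DESeq2 and at 0.030 with its size factors, and at -0.063 to 0.027 with single organoids left out. From D22 to D30 it was at -0.020 with annotated genes alone. Bsn from D20 to D22 ranged from -0.0030 to 0.15 with single organoids left out. The causes were not tested. Several other genes near the threshold moved across it, as given beside them. Cacna1f at D20, with as few as 1 read in an organoid, is where depth limits most.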
